A study of Rattus norvegicus with 5 samples.

Results

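Heart muscle calcium and energy genes are described here through 5 members: myoglobin (Mb), fatty acid binding protein 3 (Fabp3), the muscle subunit 6A2 of cytochrome c oxidase (Cox6a2), sarcolipin (Sln) and sarcalumenin (Srl). They were taken by symbol from 1800 distinct symbols over 9 tables of differences between rat lung libraries. All 5 were found, each at 1 locus and with 1 row per table. Lungs of Sprague Dawley rats, an outbred strain, were profiled by RNA sequencing in 5 libraries with 1 library per group. The reference library was male, kept in normoxia and not screened for gasping. The other 4 libraries came from rats screened for the time to a first gasp under hypobaric hypoxia and rested for a week. These rats then spent 1 h at 24 °C under the air pressure of 9144 m in a decompression chamber. Libraries are named below by their group, as in the susceptible male. The susceptible male came from animals gasping in less than 5 min, the normal (moderate) male from those at 15 to 20 min, the tolerant male from those beyond 45 min and the tolerant female from those beyond 1 h. No genotype, transgene or drug is named in the labels, and the sources used here give neither the number of animals per library nor their age.

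Heart muscle cells work by cycles of calcium release and uptake, paid for by mitochondria that burn mainly fatty acids. Myoglobin stores oxygen in the cytoplasm of heart and oxidative skeletal muscle, FABP3 carries fatty acids to the mitochondria, and COX6A2 is the heart and skeletal muscle form of a subunit of the last complex of the respiratory chain. Sarcolipin is a small membrane peptide that inhibits the calcium pump of the sarcoplasmic reticulum and in the heart is found mainly in the atria. Sarcalumenin is a calcium-binding glycoprotein inside that reticulum. In rodents a sleeve of atrial-type muscle runs along the pulmonary veins into the lung, so that such transcripts can occur in lung tissue. In bulk tissue, fewer muscle cells and less RNA per muscle cell cannot be told apart.

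Each table gives the authors' signed fold of 1 library over another and their FDR-corrected p-value, and holds only rows with a fold of at least 2 and a p below 0.05. A member outside a table has no p here, which is no evidence that the libraries were equal in it. Since there is 1 library per group, no spread can be attached to a value and no difference below is tested between conditions. The folds compare single libraries. All comparisons with normoxia share the same normoxic library. The tolerant female was the only female library, so sex and tolerance cannot be told apart in it. The deposited folds also reduced to ratios of whole numbers. With 1 constant per table, 4437 of 4439 finite folds were given by a pair of whole numbers of at most 100000 within a relative tolerance of 1e-11, against 86 when each constant was shifted by 1 part in 1000000. The smallest such numbers are given for each member below. The sources used here do not say what these numbers count, and the true ones may be a common multiple of them, so no counting interval is given. Read as the ratio of library totals, the constants put the totals of the susceptible male, normal male, tolerant male and tolerant female at 103%, 82.9%, 105% and 91.9% of the normoxic total.

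Across the members the pattern was the same in direction and unequal in depth. Mb, Sln, Fabp3 and Srl stood in all 4 tables against normoxia, and each of these 16 entries was lower than in the normoxic male in the authors' deposited tables. Cox6a2 stood in none of those 4 tables. For comparison, lower symbols made up 59.9%, 51.8%, 53.1% and 46.2% of all symbols that the authors' deposited tables list for the susceptible, normal and tolerant males and the tolerant female. How many genes the authors tested is not known. The median log2 fold of the 4 listed members was -3.41, -2.27, -7.80 and -2.51 in the same order, beside medians over all listed symbols of -1.36, -1.03, -1.08 and 1.07 in the authors' deposited tables. Over the lower listed symbols alone, the medians were -2.46, -1.57, -1.84 and -1.66 in the authors' deposited tables. The tolerant male was thus the library with the lowest values for all 4 members.

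**Figure D1:**
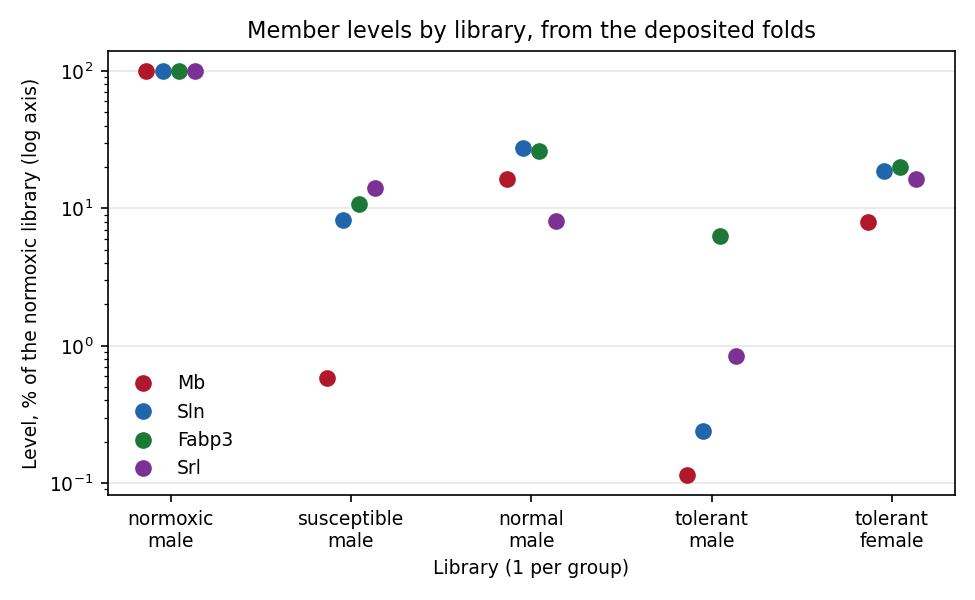
Level of Mb, Sln, Fabp3 and Srl in each library as a percentage of the normoxic library (log axis), computed from the authors' deposited folds, with 1 point per library and no error bar because each group is 1 library. All 4 points of the tolerant male lie below the same gene's points in the other libraries, and Mb reaches 0.114% there.

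Of the members, Mb, Fabp3 and Cox6a2, matched the RefSeq promoter table of the rat assembly GRCr8, and the 250 bases before their start sites are shown because the energy genes are described together below. Capitals mark matches to the MEF2 site, bound by myocyte enhancer factors, or to TATAAA, a core promoter element. The stretches are chr7:110647743-110647992 on the minus strand for Mb, chr5:147935875-147936124 on the plus strand for Fabp3 and chr1:192219717-192219966 on the minus strand for Cox6a2.
Mb: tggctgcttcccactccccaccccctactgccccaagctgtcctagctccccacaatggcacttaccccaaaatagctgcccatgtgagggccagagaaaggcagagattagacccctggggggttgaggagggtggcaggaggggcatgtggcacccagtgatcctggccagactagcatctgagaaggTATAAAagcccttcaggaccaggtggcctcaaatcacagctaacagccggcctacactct
Fabp3: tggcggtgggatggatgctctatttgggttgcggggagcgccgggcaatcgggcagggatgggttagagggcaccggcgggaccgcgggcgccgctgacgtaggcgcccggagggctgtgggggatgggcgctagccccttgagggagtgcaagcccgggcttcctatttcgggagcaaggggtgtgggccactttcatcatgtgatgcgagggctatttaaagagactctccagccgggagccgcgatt
Cox6a2: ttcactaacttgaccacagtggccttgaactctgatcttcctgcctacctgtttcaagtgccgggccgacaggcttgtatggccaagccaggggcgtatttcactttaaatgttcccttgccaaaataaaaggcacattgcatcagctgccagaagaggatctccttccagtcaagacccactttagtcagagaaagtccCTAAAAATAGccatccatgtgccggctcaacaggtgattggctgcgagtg

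Searched on both strands of the full 300-base windows, which run 50 bases past the start, the MEF2 site (by name) matched in Cox6a2 as CTAAAAATAG from position -50 to -41 and in neither other member. Of all 33469 promoters in the table, 3.29% held such a match. TATAAA, which the MEF2 site can overlap and here did not, matched in Mb from position -60 to -55 and is present in 14.2% of all promoters. The E-box letters CANNTG matched in Mb, Fabp3 and Cox6a2, as in 72.1% of all promoters. AAGGTCA, the letters of an estrogen-related receptor half-site, and ACGTG, the core of a hypoxia response element, matched in none of these windows and are found in 4.61% and 19.3% of all promoters. A match here is a run of letters and not evidence of binding.

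Mb showed the deepest value of the energy genes. Its locus is on chromosome 7, 115087558 to 115094827, in the coordinates of the tables, whose build is not named. In the smallest whole numbers, Mb stood at 1671 in the normoxic male, 10 in the susceptible male, 226 in the normal male, 2 in the tolerant male and 122 in the tolerant female. The susceptible and tolerant males had the lowest of these numbers, whereas the normal male and tolerant female kept intermediate values. Mb was 172-fold lower in the susceptible male and 874-fold lower in the tolerant male than in the normoxic male, with the FDR-corrected p listed as exactly 0 in both of the authors' deposited tables. The normal male had 6.13-fold less Mb (FDR-corrected p 2.39e-09) and the tolerant female 12.6-fold less (8.84e-12) in the authors' deposited tables. These folds correspond to 0.580%, 0.114%, 16.3% and 7.95% of the normoxic level. Mb ranked first of the 154 lower symbols in the susceptible male, 83 of 450 in the normal male, 3 of 139 in the tolerant male, behind Lrrc10 and Myl7, which are listed with that library at 0, and 3 of 115 in the female according to the authors' deposited tables. In GRCr8, Mb overlaps a pair of long non-coding RNA genes that none of the 9 tables lists.

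Fabp3 was the least variable of the 4 members listed against normoxia. Its locus is on chromosome 5, 149340517 to 149347268. The whole numbers of Fabp3 were 529 in normoxia, 59 in the susceptible male, 115 in the normal male, 35 in the tolerant male and 97 in the tolerant female. Each gene has its own scale, so these numbers cannot be set against those of Mb. Relative to normoxia, the susceptible male had 9.25-fold less Fabp3, the normal male 3.82-fold less, the tolerant male 15.8-fold less and the tolerant female 5.01-fold less, with FDR-corrected p-values of 0.00444, 0.0365, 0.00115 and 0.0326 in the authors' deposited tables. The highest exposed level was 4.14 times the lowest, against 142 times for Mb. The fall of Mb exceeded that of Fabp3 by 18.6-fold in the susceptible male and 55.3-fold in the tolerant male, but only by 1.61-fold in the normal male. In the tolerant female it did so by 2.51-fold. In GRCr8 the Fabp3 locus overlaps Zcchc17, a gene listed in none of the 9 tables, and the sources used here do not say how reads of overlapping genes were assigned.

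Cox6a2 was listed once. Its locus is on chromosome 1, 187464579 to 187465301. Cox6a2 was 37.3-fold lower in the tolerant male than in the normal male with an FDR-corrected p of 0.0430 in the authors' deposited table, where Mb was 142-fold lower with a p of 0.0206. The smallest whole numbers for Cox6a2 were 207 in the normal male and 7 in the tolerant male. No table links Cox6a2 to the normoxic male, susceptible male or tolerant female, so its level there has no value here. Itgad, an integrin subunit of leukocytes, ends 273 bases before Cox6a2 in the coordinates of the tables and was 5.62-fold higher in the normal than in the susceptible male (FDR-corrected p 0.0132) in the authors' deposited table. Reads running from one gene into the other were not examined.

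Sln, the inhibitor of the calcium pump, followed Mb in the order of the libraries. Its locus is on chromosome 8, 57314414 to 57318953. The whole numbers of Sln were 801 in normoxia, 68 in the susceptible male, 184 in the normal male, 2 in the tolerant male and 137 in the tolerant female. The tolerant male had by far the lowest of these numbers. Compared with normoxia, the susceptible male had 12.1-fold less Sln, the normal male 3.61-fold less, the tolerant male 419-fold less and the tolerant female 5.37-fold less, with FDR-corrected p-values of 2.61e-05, 0.00486, 6.04e-07 and 0.00104 in the authors' deposited tables. The level in the tolerant male was 0.239% of normoxia, and that in the other exposed libraries lay between 8.23% and 27.7%. The ratio of Mb to Sln was 14.2-fold below its normoxic value in the susceptible male, and 1.70-, 2.09- and 2.34-fold below it in the normal male, tolerant male and tolerant female. This ratio departed most from normoxia in the susceptible male.

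Srl, the calcium-binding protein of the reticulum, had another order of libraries than Mb, Sln and Fabp3. Its locus is on chromosome 10, 11174718 to 11218663. The whole numbers of Srl were 568 in normoxia, 82 in the susceptible male, 38 in the normal male, 5 in the tolerant male and 86 in the tolerant female. The normal male was thus below the susceptible male and the tolerant female, unlike in Mb, Sln and Fabp3. Set against normoxia, the susceptible male had 7.14-fold less Srl, the normal male 12.4-fold less, the tolerant male 119-fold less and the tolerant female 6.07-fold less, with FDR-corrected p-values of 0.00562, 0.000419, 9.55e-05 and 0.00985 in the authors' deposited tables. Relative to normoxia, Sln exceeded Srl by 3.43-fold in the normal male and fell short of it by 3.53-fold in the tolerant male.

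**Figure D2:**
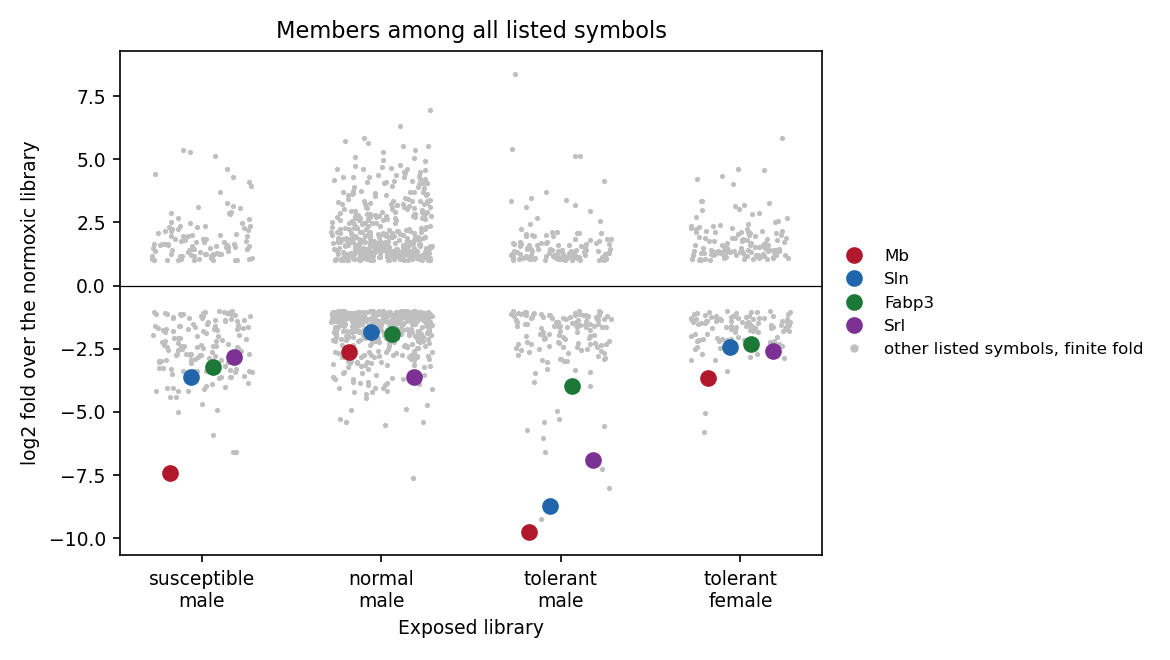
Log2 fold over the normoxic library of every listed symbol with a finite fold (grey) and of Mb, Sln, Fabp3 and Srl (coloured) in the 4 comparisons with normoxia, from the authors' deposited tables. The gap around 0 is the fold limit of 2 of the tables, and the members lie on the lower side in every library, deepest in the tolerant male.

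Ordered from high to low, Mb, Sln and Fabp3 ran normoxic male, normal male, tolerant female, susceptible male, tolerant male. For Srl the order was normoxic male, tolerant female, susceptible male, normal male, tolerant male. Neighbours in these orders differed unequally. Tolerant female and normal male differed by 2.05-fold in Mb, 1.49-fold in Sln, 1.31-fold in Fabp3 and 2.04-fold in Srl, and the tolerant female was the lower of the pair except in Srl. These folds were derived through the normoxic library and no table lists a member for that pair, so they carry no p. Those of Mb and Srl met the fold limit of the tables. They thus either missed the authors' p limit or were left out for a reason not given. Whether such neighbours differ beyond animal-to-animal spread cannot be said with 1 library each.

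Between exposed libraries, 3 entries of the members were listed. Besides Mb and Cox6a2 in the tolerant against the normal male, Mb was 28.1-fold higher in the normal than in the susceptible male (FDR-corrected p 0.0258) in the authors' deposited table. These comparisons do not use the normoxic library as their reference. Higher symbols made up 61.0% of those listed for the normal over the susceptible male, and lower symbols 63.3% of those for the tolerant over the normal male, in the authors' deposited tables. For 18 further combinations of a member and a table, the fold could be derived through the normoxic library. It reached 2 in 12 and 4 in 7 of them, although the table does not list the gene. These 12 met the fold limit of the tables. They thus either missed the authors' p limit or were left out for a reason not given, and none is a difference that the authors listed. The largest derived values were Sln, 116-fold lower in the tolerant than in the normal male and 34.5-fold lower than in the susceptible male. Srl was derived as 16.6-fold lower in the tolerant than in the susceptible male and 9.58-fold lower than in the normal male. Mb was derived as 13.7-fold higher in the tolerant female and 5.07-fold lower in the tolerant male than in the susceptible male. Fabp3 was derived as 4.14-fold lower in the tolerant than in the normal male. The 9 tables hold no comparison of the tolerant female with the tolerant male. Derived folds put the female higher by 69.4-fold for Mb, 78.0-fold for Sln, 19.6-fold for Srl and 3.15-fold for Fabp3. The smallest whole numbers of the tolerant male were 2 for Mb, 2 for Sln, 5 for Srl and 35 for Fabp3. What they count is not given, so the precision of folds with that library is unknown. Only Mb had listed folds for all 3 pairs of a set of libraries. This held for the normoxic, normal and susceptible males and for the normoxic, normal and tolerant males, and in both sets the folds closed within 0.001 on the log2 scale.

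**Figure D3:**
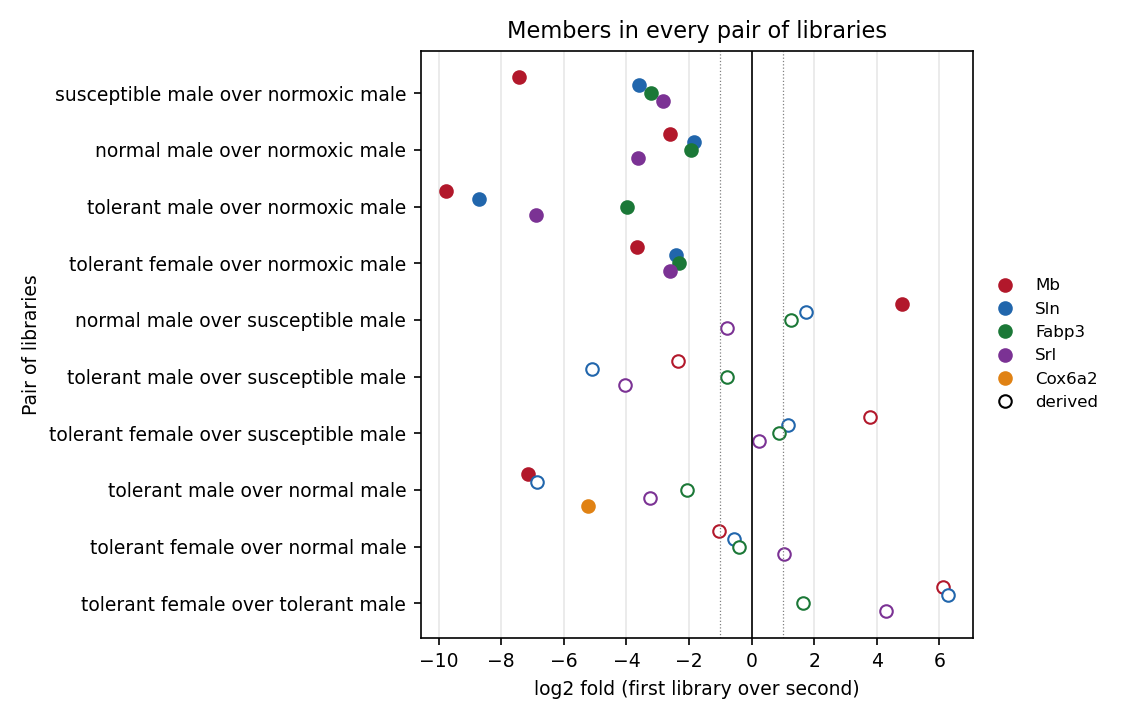
Log2 fold of each member in all 10 pairs of libraries, first library over second, with filled points for folds in the authors' deposited tables and open points for folds derived through a shared library, which carry no p. Dotted lines mark a fold of 2. The points of the tolerant male are on the lower side in every pair that has it first, and Cox6a2 has a single point.

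Other genes of calcium handling and energy supply were listed as well. The number of genes tested is not known, so no share over all genes can stand beside the counts below. They are thus not a result about either list. Of 31 symbols on the calcium list, Sln and Srl included, 7 stood in any table against normoxia. Without Sln and Srl, 3, 2, 3 and 3 were listed for the susceptible, normal and tolerant males and the tolerant female, all lower in the authors' deposited tables. Ryr2, the calcium release channel of the heart reticulum, was 7.38-, 3.92-, 16.8- and 4.46-fold lower in that order in the authors' deposited tables. Atp2a2, the calcium pump that Sln inhibits and that many cell types express, was lower by 2.19-fold (susceptible male), 3.01-fold (tolerant male) and 2.34-fold (tolerant female) in the authors' deposited tables. Casq2, the calcium buffer calsequestrin of heart muscle, was lower by 6.75-fold (susceptible male) and 4.08-fold (tolerant female) in the authors' deposited tables. Trdn, which anchors calsequestrin to the release channel, was 8.95-fold lower in the normal male, and Tmem38a, a counter-ion channel of the reticulum, 4.75-fold lower in the tolerant male in the authors' deposited tables. Of 50 symbols on the energy list, Mb, Fabp3 and Cox6a2 included, 4 stood in any table against normoxia. Besides Mb and Fabp3 these were Pdk2, 2.53-fold lower in the normal male and 2.23-fold lower in the tolerant male, and Pdk4, 3.22-fold higher in the tolerant male, in the authors' deposited tables. Both encode kinases that switch off pyruvate dehydrogenase. Hexokinase 2 (Hk2) was 2.04-fold higher in the normal male and 2.27-fold higher in the tolerant female than in the susceptible male in the authors' deposited tables. A further list held 11 other globin, fatty acid binding protein, cytochrome oxidase and calcium pump symbols. Of these, Cox7a2 was 2.31-fold higher in the normal male than in normoxia in the authors' deposited table. It was also 2.51-fold higher in the normal than in the susceptible male in the authors' deposited table. In the tolerant female Cox7a2 was 2.33-fold lower than in the normal male in the authors' deposited table. Fabp4, the fat cell form of the carrier, was 4.83-fold higher in the normal than in the susceptible male in the authors' deposited table.

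**Figure D4:**
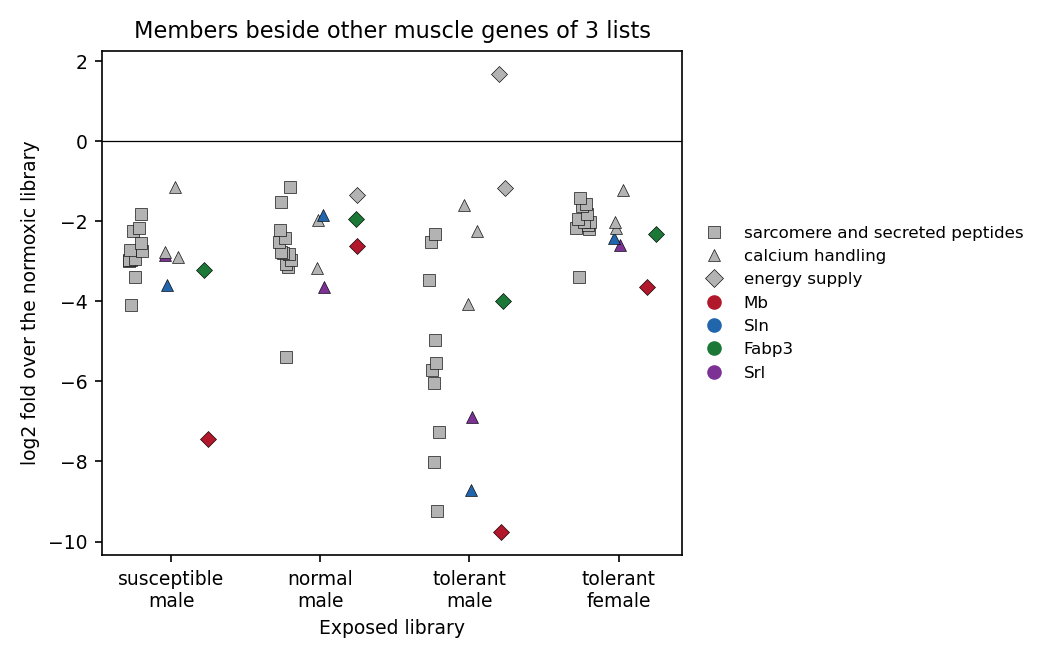
Log2 fold over the normoxic library of listed symbols from the lists of heart muscle sarcomere and secreted peptides (squares), calcium handling (triangles) and energy supply (diamonds), with members coloured, from the authors' deposited tables. Lrrc10 and Myl7 of the tolerant male, listed with that library at 0, are not drawn. In the susceptible male Mb, at -7.43, lies below every other point, and the grey diamond above 0 in the tolerant male is Pdk4.

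Among marker lists of tissues that could carry these transcripts, heart muscle genes were lower beside the members. Of 29 heart muscle sarcomere and secreted peptide symbols, 12, 12, 12 and 11 were listed for the susceptible, normal and tolerant males and the tolerant female, all lower, with medians of 7.16-, 6.86-, 49.6- and 4.02-fold in the authors' deposited tables. The median of the tolerant male leaves out Lrrc10 and Myl7, the latter listed there at a locus on another chromosome than in RefSeq. Like the members, this list was lowest in the tolerant male. The medians are over partly different symbols in each library. Where Mb was 28.1-fold higher, in the normal over the susceptible male, Myl7 was the 1 symbol of the list with an entry, 3.66-fold higher (FDR-corrected p 0.00344) in the authors' deposited table. For the tolerant over the normal male, 6 symbols of the list had entries, all lower, in the authors' deposited table. Where no member was listed, in the tolerant over the susceptible male, 3 had entries in the authors' deposited table. These were Myh6 (77.6-fold), Tnnt2 (7.98-fold) and Ankrd1 (2.53-fold), all lower, where 61 of all 134 listed symbols were lower. Xirp1 was 3.69-fold higher in the tolerant female than in the normal male in the authors' deposited table. Of 18 skeletal muscle symbols, which include Acta1, Myh1, Myh2, Myh4 and Tnnt3, none stood in any of the 9 tables. Of 12 brown and white fat symbols none stood in a table against normoxia, and of 10 smooth muscle symbols the normal male alone had entries, Cnn1 at 2.05-fold and Actg2 at 2.02-fold higher in the authors' deposited table. Of 11 lung epithelium symbols, Scgb1a1 alone was listed in any table, 2.14-fold higher in the normal male than in normoxia in the authors' deposited table. Tables of differences give no level for an unlisted gene, so the lung identity of the samples could not be checked with them. Between exposed libraries, a few of these markers stood in the tables that list Mb and Cox6a2. For the normal over the susceptible male, the fat markers Fabp4, given above, and Cfd (3.01-fold) and the smooth muscle markers Cnn1 (2.07-fold) and Actg2 (2.05-fold) were higher and Lmod1 2.43-fold lower in the authors' deposited table. For the tolerant over the normal male, Cfd was 3.46-fold, Cnn1 2.12-fold and Scgb1a1 2.03-fold lower in the authors' deposited table. Their part in the values of Mb and Cox6a2 was not tested. How much heart-type muscle each piece of lung held was not measured, and its part in the members' values was not tested.

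The genes most like each member were sought among 43 other named symbols with a finite fold in all 4 tables against normoxia, by the root mean square difference of the log2 folds over those 4 comparisons. These candidates already include the heart muscle genes Myh6, Myh7, Tnni3, Tnnt2, Tnnc1, Actn2, Ttn, Myom2 and Ryr2. The share of muscle genes among the candidates was not computed, so such neighbours are not a result about the members. Nearest to Fabp3 were Ryr2 at 0.19, Cmya5, a protein of the muscle costamere, at 0.55, and Dmbt1, a mucosal scavenger receptor, at 0.67. For Sln they were Actn2 at 0.59, Myh6 at 0.74 and Tnni3 at 0.87, which encode sarcomere proteins. Srl had Tnni3 at 0.65, Tnnc1 at 0.70 and Tnnt2 at 0.87, the genes of the cardiac troponins. Mb had no close partner by this distance, with Myh6 at 2.38, Myh7 at 2.51 and Actn2 at 2.54. In shape alone Myh7 was nearer, with a correlation to Mb of 0.949 over the 4 comparisons, rank 4 of 43. Among the members themselves the closest pair was Sln and Srl at 1.33 and the farthest Mb and Fabp3 at 3.66. Nearest to the mean of the 4 members were Tnni3 at 0.72, Myh7 at 0.74 and Actn2 at 0.83. Since all 4 comparisons share the normoxic library, a value particular to that library enters every one of these profiles.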

How the data were processed

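Per the labels, TriReagent lung RNA went into TruSeq libraries that were sequenced on a Genome Analyzer IIx. The authors deposited 11 tables, of which 2 were byte for byte copies, leaving 9. Each gives a signed proportional fold, treated here as a signed score: a ratio of proportions per the file headers, with the sign read from the values (below 0, the inverse ratio). The largest number of double precision stands where 1 library was at 0. The deposited p-value is FDR-corrected, per the file headers. The aligner, counting, strand handling, build and test remain not given in the sources used here. Depth as a count per library is unknown.

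Folds were read with Python 3.11.15 and pandas 2.3.3, taken as log2, with the largest fold kept where a symbol had several rows. Chromosome numbers come from the RefSeq chromosome of most symbols on each record. Unlisted folds were derived as differences of log2 folds through a shared library. Chaining, nearest profiles and the whole-number search were tested on simulated data. No count test applied, and no test between groups was possible.

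The members, lists and rule for named genes (every member, 3 nearest genes each, up to 6 per list and table) were chosen with earlier results of these data known. The whole-number search was added after seeing the data. Protein sequences were not used here. The alternatives were an FDR limit of 0.01, a fold of at least 4, the smallest row per symbol, RefSeq synonyms, chromosome agreement and each single route, plus medians without Mb and the count without the normal male, both added after seeing the data.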

Additional observations from a re-analysis of the deposited data

How the results depend on the processing

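No paired analysis was possible because each group is 1 library and no replicate exists to pair or leave out. With the FDR-corrected p limited to 0.01, Fabp3 was lost in the normal male and the tolerant female, where the medians became -2.62 and -2.60, and 0 members were left for the normal over the susceptible male and 0 for the tolerant over the normal male. These 2 comparisons, the only ones between exposed libraries that list a member, thus rest on p-values between 0.01 and 0.05. At a fold of at least 4, 2 members were left in the normal male, with a median of -3.12, and 2 members were lower in all 4 exposed libraries. Without Mb the medians were -3.21 in the susceptible male, -1.93 in the normal male, -6.89 in the tolerant male and -2.43 in the tolerant female against normoxia, and -5.22 for the tolerant over the normal male. Some alternatives could move nothing: each member had 1 row per table on its RefSeq chromosome, and the count of members lower in all exposed libraries could not fall without the normal male. Matching synonyms found no further row. All derived folds but 1 had a single route, so routes could be compared only for Mb in the tolerant over the susceptible male. There both gave the same fold within 0.001, as ratios of 1 number per library must. No direction reversed under the alternatives run, but limits that only remove entries, and leaving out Mb, could not have reversed one. By correlation over the 4 comparisons in place of distance, the nearest gene by distance ranked 13 of 43 for Mb (Myh6), 3 for Sln (Actn2), 2 for Fabp3 (Ryr2) and 6 for Srl (Tnni3). Depth per library is unknown, which leaves the precision of the large folds of Mb and Sln in the tolerant male unknown as well.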
